A study of Mus musculus with 3 samples.

Results

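The 9 genes described here encode the parts that anchor epidermal cells to the basement membrane: Col17a1, Col7a1, Itga6, Itgb4, Itga3, Lama3, Lamb3, Dst and Plec. They were taken by gene symbol, and all 9 were found among the 31053 genes listed for each library. The skin of C57BL/6 mice at 7 weeks after birth was profiled by droplet single-cell RNA sequencing in a study of hair growth and the natural product Shi-Bi-Man. The series held 3 libraries, 1 for each agent: control, Shi-Bi-Man and metformin, a drug given for diabetes. The control and metformin libraries were analysed, and the Shi-Bi-Man library was not analysed here. The dose, the route and the number of mice behind a library are not given in the labels used here. With 1 library for each agent there was no replicate, so no test between agents was possible, and every interval below is a 95% interval that covers counting error only.

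Hemidesmosomes are the plaques by which basal keratinocytes hold on to the basement membrane. Integrin alpha 6 beta 4, encoded by Itga6 and Itgb4, and the transmembrane collagen XVII, encoded by Col17a1, span the cell membrane there. Inside the cell they bind the plakins plectin (Plec) and dystonin (Dst, whose epithelial form is BPAG1), which tie the plaque to keratin filaments. Outside the cell they bind laminin-332, with chains encoded by Lama3 and Lamb3. Collagen VII, encoded by Col7a1, forms the anchoring fibrils that run from the basement membrane into the dermis. Itga3 encodes the alpha chain of integrin alpha 3 beta 1, a laminin receptor that lies outside hemidesmosomes. In human patients, loss of these proteins gives blistering of the skin, and Plec and Dst are also used by cells that form no hemidesmosome, such as muscle and nerve.

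The RefSeq promoter windows (GRCm38.p6, 250 bases before to 50 bases after a start) matched 5 of the 9 genes: Col17a1, Col7a1, Itga3, Lamb3 and Dst. The windows below are those of Col17a1 (chr19:47691993-47692292, minus strand) and Itga3 (chr11:95076665-95076964, minus strand), whose RNA was concentrated in basal keratinocytes, and the 2 windows of Dst, whose UMIs were found in every class (chr1:34011345-34011644 and chr1:34160010-34160309, plus strand). Capitals mark matches, on either strand, to the TATA box letters TATAAA or the GC box letters GGGCGG, whose letters do not overlap each other.
Col17a1: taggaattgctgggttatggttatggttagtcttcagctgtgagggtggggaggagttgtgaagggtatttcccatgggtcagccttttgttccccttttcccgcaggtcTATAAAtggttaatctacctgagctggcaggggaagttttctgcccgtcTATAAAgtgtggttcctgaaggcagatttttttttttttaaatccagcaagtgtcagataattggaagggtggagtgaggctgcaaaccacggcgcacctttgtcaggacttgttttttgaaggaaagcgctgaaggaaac
Itga3: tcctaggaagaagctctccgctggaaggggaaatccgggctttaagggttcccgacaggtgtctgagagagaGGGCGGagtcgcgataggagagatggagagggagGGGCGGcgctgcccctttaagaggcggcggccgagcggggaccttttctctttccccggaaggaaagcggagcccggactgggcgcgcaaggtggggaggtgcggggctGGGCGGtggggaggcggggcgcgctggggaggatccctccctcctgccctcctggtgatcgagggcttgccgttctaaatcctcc
Dst, first window: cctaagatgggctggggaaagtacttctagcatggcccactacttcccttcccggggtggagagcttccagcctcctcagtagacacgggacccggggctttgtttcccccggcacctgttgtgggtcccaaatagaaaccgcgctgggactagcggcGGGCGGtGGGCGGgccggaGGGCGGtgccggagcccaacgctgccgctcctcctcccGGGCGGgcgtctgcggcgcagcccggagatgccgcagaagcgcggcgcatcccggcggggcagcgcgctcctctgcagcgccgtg
Dst, second window: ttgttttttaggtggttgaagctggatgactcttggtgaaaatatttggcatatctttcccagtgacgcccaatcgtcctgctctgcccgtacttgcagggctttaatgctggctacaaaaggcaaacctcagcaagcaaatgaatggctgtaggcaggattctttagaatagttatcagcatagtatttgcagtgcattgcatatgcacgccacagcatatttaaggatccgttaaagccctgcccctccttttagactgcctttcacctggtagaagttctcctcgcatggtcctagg
The Col17a1 window held 2 TATA matches and no GC box match. The Itga3 window held 3 GC box matches, the first Dst window held 4, and the second Dst window held neither motif. Over all 32851 RefSeq windows of the same length, TATAAA was found in 13.6% and GGGCGG in 35.7%. Among the 5 matched genes, TATAAA was found for 1 (Col17a1) and GGGCGG for 3 (Col7a1, Dst and Itga3). The AP-1 letters TGANTCA were found in 7.81% of all windows and, among these genes, only in another window of Itga3. These matches describe letters and say nothing of binding.

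In the mouse genome build GRCm38 (GENCODE M21) the genes lay on 7 chromosomes. Col17a1 spanned chr19:47646344-47692094 on the minus strand and Col7a1 spanned chr9:108953586-108984875 on the plus strand. Itga6 lay at chr2:71745616-71858416 (plus), Itgb4 at chr11:115974709-116008412 (plus) and Itga3 at chr11:95044474-95076801 (minus). Lama3 lay at chr18:12333819-12583013 (plus) and Lamb3 at chr1:193207699-193343878 (plus). Dst covered 400437 bases at chr1:33908225-34308661 (plus), and Plec lay at chr15:76170974-76232574 (minus). The coding transcripts of Dst end in 3 places more than 1000 bases apart, and the counts sum over them, so the epithelial, neural and muscle forms could not be told apart. Exons of Plec overlap those of Parp10 on the same strand, and exons of Itgb4 and Lama3 overlap those of an antisense gene each, B230344G16Rik and Gm29200.

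The control library held 12108 barcodes with a median of 3939 UMIs (unique molecules counted), and the metformin library held 12092 barcodes with a median of 6540 UMIs. The libraries shared 41 barcodes. After filtering, 9681 control cells and 8817 metformin cells remained, in 33 clusters. The 9 genes and 41 partner genes were left out of the genes used for clustering. Names such as basal came from marker lists that hold none of the 9 genes, and each stands for a basal-like or other similar class. Levels are given as CPM, the UMIs of a gene per 1000000 UMIs of a class in a library, for classes with at least 50 cells in that library. Keratinocyte clusters gave 56.5% of all UMIs of the control cells and 72.4% of those of the metformin cells. The hair matrix had 16 control cells against 608 metformin cells and the inner root sheath had 1 against 82, so these follicle cells were described in the metformin library alone.

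Basal keratinocytes carried the whole set. In the control library 1230 basal cells gave Col17a1 at 1252 CPM, Itga6 at 517 CPM, Dst at 351 CPM, Plec at 310.2 CPM and Itgb4 at 179.6 CPM. The same cells gave Itga3 at 138 CPM, Lamb3 at 132 CPM, Col7a1 at 98.8 CPM and Lama3 at 45.2 CPM. In the metformin library 1917 basal cells gave Col17a1 at 1084 CPM, Itga6 at 495 CPM, Dst at 429 CPM, Plec at 335 CPM and Itgb4 at 160.0 CPM. There Itga3 stood at 129 CPM, Lamb3 at 134 CPM, Col7a1 at 87.2 CPM and Lama3 at 41.1 CPM. The values count 3′ ends and were not compared between genes. The basal class was the highest of 19 classes in both libraries for 5 genes: Col17a1, Itga6, Itga3, Lama3 and Lamb3. Its interval overlapped that of the next class for Itga6 in the metformin library (Schwann cells), for Itga3 in both libraries and Lamb3 in the control library (cycling basal cells), and for Lama3 in both libraries (stem or outer root sheath). For the other 4 genes another class ranked first in at least 1 library. These were the dermal sheath for Col7a1, Schwann cells for Itgb4, lymphatic endothelium for Plec and, in the control library, the class named melanocytes for Dst. At Leiden resolution 2 only 22 of the control cells were named melanocytes, against 51 here.

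**Figure D1:**
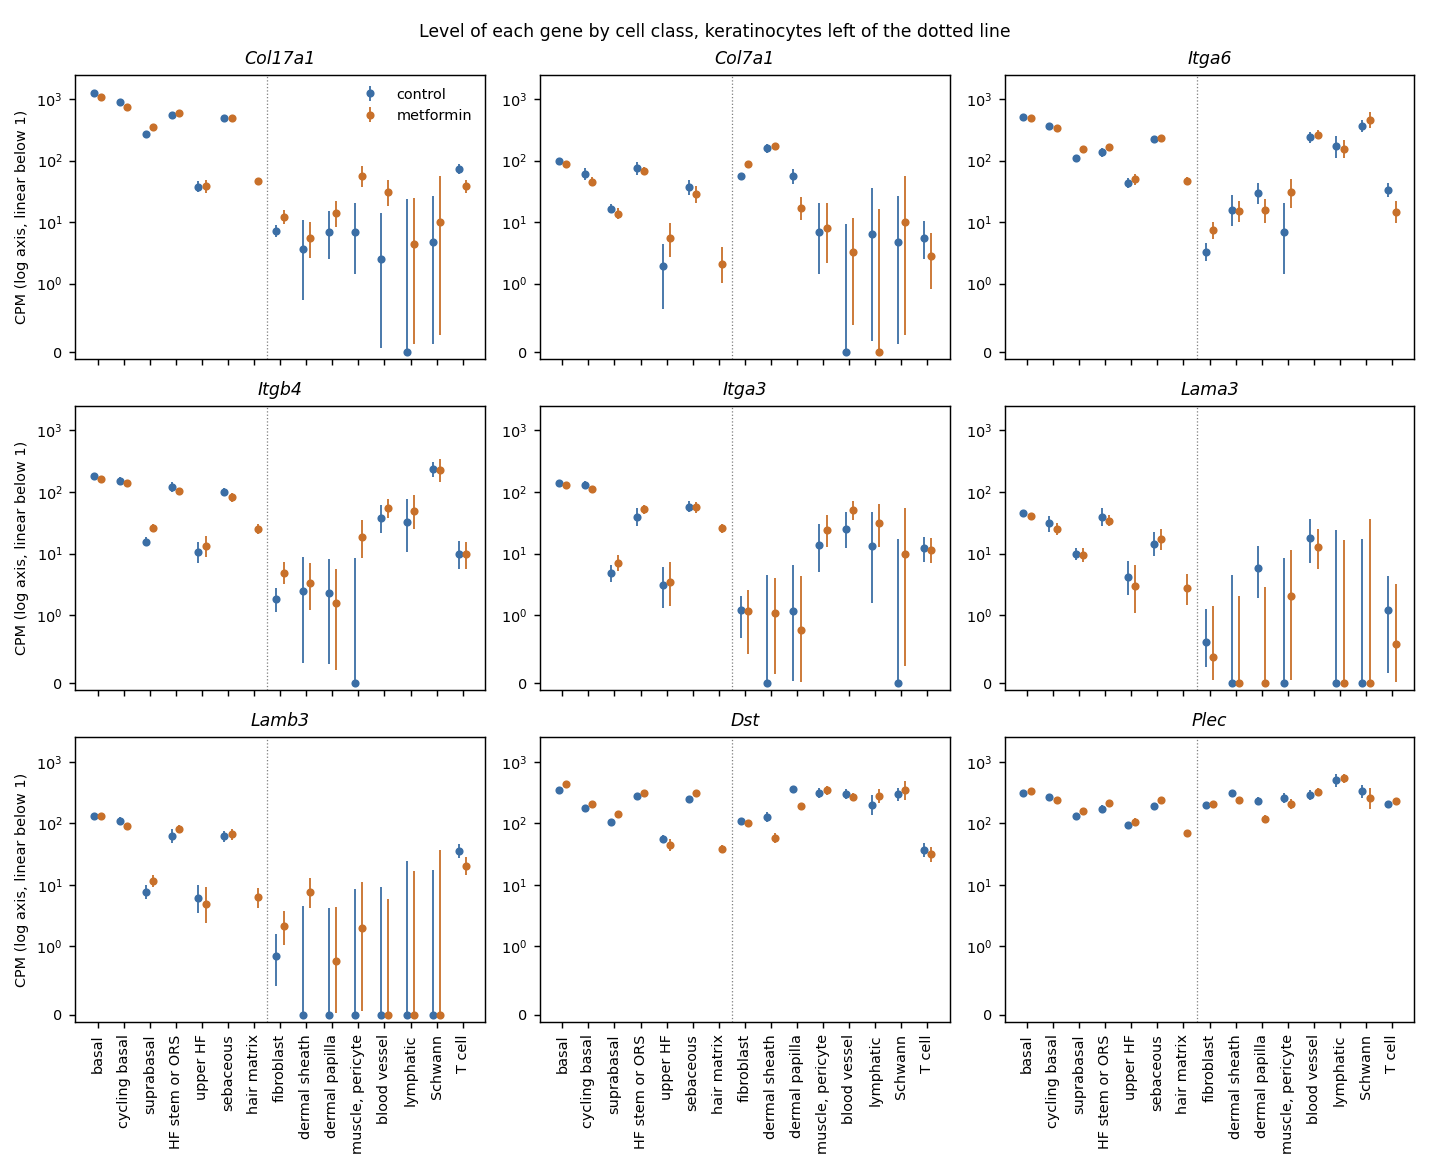
Level of each of the 9 genes (CPM, log axis that is linear below 1) in 15 cell classes, with control in blue and metformin in orange. Points are the level in 1 library and bars are 95% Poisson intervals. Col17a1, Lama3 and Lamb3 are lower in every class right of the dotted line than in basal cells, but not than in every keratinocyte class. Control T cells hold Col17a1 at 72.2 CPM, against 37.6 CPM in the control upper hair follicle. Plec lies between 70.1 and 537 CPM in every class drawn.

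The genes differed in how far they were restricted to keratinocytes. Keratinocyte clusters held 98.3% of the Col17a1 UMIs in the control library and 98.7% in the metformin library. For Lama3 the shares were 96.2% and 98.4%, for Lamb3 95.7% and 97.4%, and for Itga3 96.3% and 96.5%. For Itga6 they were 94.2% and 95.6%, and for Itgb4 92.7% and 94.4%. The share of Dst was lower, at 69.0% and 85.3%. Plec was divided nearly as the UMIs of all genes were, with 57.5% of its UMIs in keratinocyte clusters of the control library and 73.8% in those of the metformin library. Col7a1 was also split, with 60.6% and 67.4%.

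Detection in single cells was compared after each cell had been thinned to 1500 UMIs. Col17a1 was then seen in 83.0% of 1225 control basal cells (exact binomial interval 80.8 to 85.1%) and in 79.4% of 1911 metformin basal cells (77.6 to 81.2%). Without thinning it was seen in 99.8% and 99.2% of basal cells. In T cells, which have no hemidesmosome, Col17a1 was seen in 4.10% of 561 thinned control cells and 2.02% of 593 thinned metformin cells. The basal share of Itga6 was 50.2% and 51.4%, against 2.50% and 1.01% of T cells. Lama3 was seen in 5.55% and 5.13% of thinned basal cells, against 0.178% of control T cells and 0 of 593 metformin T cells. Read as up to 3 cells, that 0 allows a share of up to 0.506%. The median basal cell held UMIs of 3 of the 9 genes in either library, and 2.29% of control and 2.46% of metformin basal cells held none. T cells had a median depth of 2309 UMIs in the control library and 2245 UMIs in the metformin library before thinning, against 7552 UMIs and 7005 UMIs in basal cells.

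The set fell as keratinocytes left the basal layer. All 9 genes were at least 2-fold higher in basal than in suprabasal cells in both libraries, where 12.3% of 10764 genes in the control library and 12% of 10982 genes in the metformin library were higher by as much. The median log2 ratio of the 9 genes was 2.23 in the control library and 2.10 in the metformin library, and that of all genes with at least 20 counts was 0.04 and 0.05. Itga3 fell most, from 138 CPM to 4.74 CPM in the control library (29.0-fold, 21.2 to 40.8) and from 129 CPM to 7.04 CPM in the metformin library (18.3-fold, 13.7 to 25.1). Lamb3 was 17.2-fold higher in basal cells (13.4 to 22.4) in the control library and 11.4-fold higher (9.12 to 14.5) in the metformin library. Plec fell least, at 2.39-fold (2.23 to 2.57) and 2.08-fold (1.94 to 2.22). The other 6 genes lay between 3.34-fold and 11.5-fold in the control library and between 3.01-fold and 6.33-fold in the metformin library. The size of these folds moved with the processing. Itga3, at 4.86 on the log2 scale in the control library, came to 3.04 with doublets kept and to 6.82 with the 9 genes and their partners kept among the clustering genes. In the metformin library it was at 4.20 and came to 2.54 and 8.34. Lamb3, at 4.10 and 3.52, came to 2.71 and 2.04 with doublets kept. Dst in the control library came to 0.96 on the log2 scale, and Plec in the metformin library to 0.98, when each library was clustered on its own. Plec in the metformin library was also under 2-fold with the wider cell filter (log2 0.97) and with doublets kept (log2 0.93).

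The clusters were then set in an order from basal to granular that was chosen after they had been seen, so the steps describe the decline and do not test it. Cluster 0 and cluster 9 were basal, cluster 4 was suprabasal and led by Mt4, Skint7 and Krt1, cluster 12 was suprabasal and led by Gadl1, Serpinb12 and Serpinb3b, and cluster 30 was the granular layer. The mean log2 fold of the basal markers was 1.67 in cluster 0 and 1.24 in cluster 9. That of the suprabasal markers was 2.28 in cluster 4 and 3.51 in cluster 12. All 9 genes were lower at each of the 3 steps from cluster 0 to 9, to 4 and to 12, in both libraries, though for Plec the last step was within counting error. The share of all genes that were lower by any amount at all 3 steps was not computed. From cluster 0 to cluster 9 none fell by 2-fold (5.86% of all genes did in the control and 4.81% in the metformin library), at the step to cluster 4 a fall of that size was seen for 7 of 9 in either library (4.45% and 4.37%), and at the step to cluster 12 for 8 in the control and 7 in the metformin library (6.95% and 8.25%). Col17a1 went from 1311 CPM in cluster 0 to 1047 CPM, 408 CPM and 38.1 CPM in the control library, and from 1142 CPM to 888 CPM, 468 CPM and 50.2 CPM in the metformin library. Cluster 12 thus held 2.91% (2.41 to 3.48%) of the cluster 0 level of Col17a1 in the control library and 4.39% (3.56 to 5.36%) in the metformin library. Itgb4 fell sooner, to 12.2% in cluster 4 and 1.14% in cluster 12 of the control library, and to 19.6% and 5.09% in the metformin library. Itga3 was already down to 4.72% and 6.76% in cluster 4, and Lamb3 to 8.24% and 10.9%. Itga6, the partner chain of Itgb4, still stood at 29.6% and 39.2% in cluster 4. Plec still stood at 38.7% and 41.5% of its cluster 0 level in cluster 12. Its ratio of cluster 4 to cluster 12 had an interval that held 1 in the control library (131 CPM and 128 CPM, 0.904 to 1.16) and in the metformin library (167 CPM and 148 CPM, 0.982 to 1.29). The 73 granular cells of the control library held Plec at 84.8 CPM, Col17a1 at 2.53 CPM from 2 UMIs, Dst at 2.53 CPM from 2 UMIs, Col7a1 at 7.59 CPM from 6 UMIs, and no UMI of Itga3, Lama3 or Lamb3. Read as up to 3 counts, a count of 0 in these cells allows up to 3.8 CPM.

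**Figure D2:**
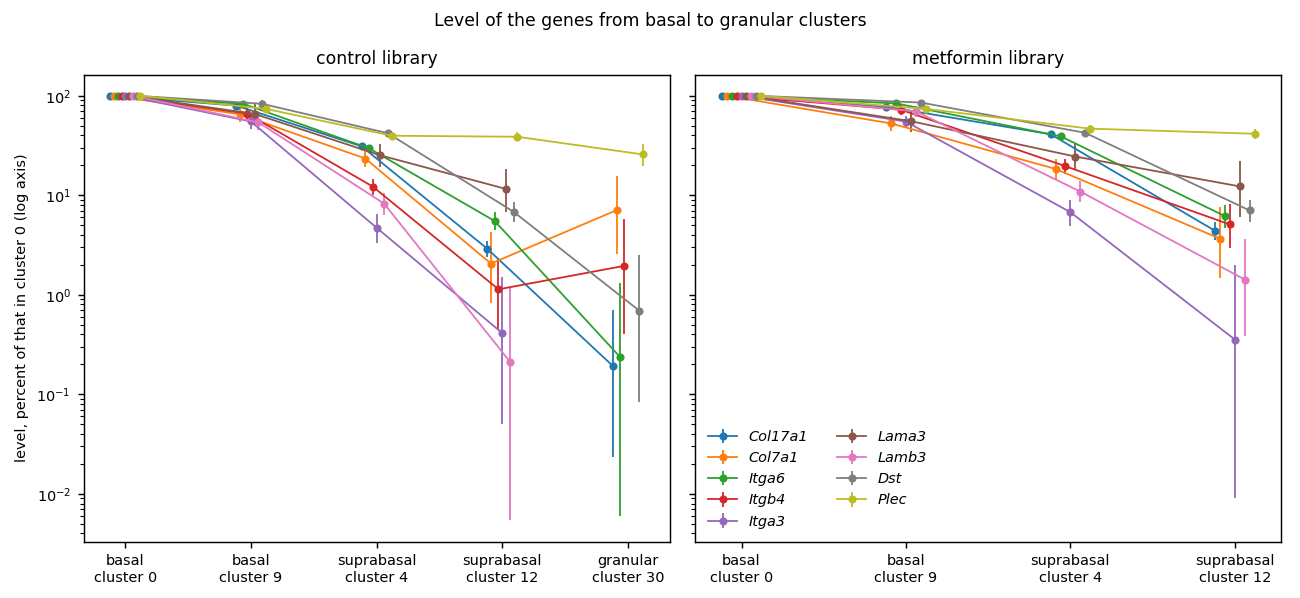
Level of each gene as a percent of its level in basal cluster 0 (log axis) along the clusters from basal to granular, for the control library (left) and the metformin library (right, where the granular layer had 15 cells and is left out). Bars are 95% exact intervals of the ratio, and clusters without a UMI of a gene are not drawn. Itga3 and Lamb3 drop below 11% by cluster 4, and Plec stays at 38.7% or more in cluster 12.

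Cycling basal cells held less of the set than the other basal cells. The class held 170 control and 352 metformin cells that expressed Ube2c and Cdk1. The interval of the ratio lay below 1 for 8 of the 9 genes in the control library, with a median log2 ratio of -0.48, and for 9 of 9 in the metformin library, with a median of -0.56. The median over all genes was close to 0 in both libraries, and the share of all genes with an interval below 1 was not computed. Dst fell most, to 0.511 of the basal level (0.450 to 0.578) in the control library and 0.480 (0.441 to 0.521) in the metformin library. Past the 2-fold line there was only Dst in the metformin library, against 5.15% of genes in the control library and 4.83% in the metformin library. Itga3 was at 0.951 (0.815 to 1.10) and 0.859 (0.763 to 0.966) of the basal level.

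The hair follicle stem or outer root sheath class expressed Lhx2, Sox9 and Lgr5. The integrin genes of the set and the laminin chain Lamb3 were lower there than in basal cells, and the laminin chain Lama3 was near the basal level. Itga6 stood at 138 CPM in 193 control cells and 168 CPM in 500 metformin cells, or 0.266 (0.223 to 0.316) and 0.338 (0.306 to 0.373) of the basal level. Itga3 stood at 0.289 (0.205 to 0.397) and 0.408 (0.341 to 0.486). Itgb4 stood at 0.670 (0.551 to 0.807) and 0.655 (0.575 to 0.743), so the ratio of the 2 chains of alpha 6 beta 4 differed from that of basal cells. Lama3 was at 39.8 CPM and 34.3 CPM, with intervals of the ratio that held 1 (0.617 to 1.22 and 0.659 to 1.04). At least 2-fold lower than in basal cells were 4 of 9 genes in the control library (Col17a1, Itga6, Itga3 and Lamb3; 10.1% of all genes) and 2 of 9 in the metformin library (Itga6 and Itga3; 7.79% of all genes). The median over all genes was 0.19 and 0.37 on the log2 scale, against -0.83 and -0.66 for the 9 genes.

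The upper hair follicle class of the main clustering, marked by Krt79 and Defb6, held less of every member than basal cells. All 9 genes were at least 2-fold lower there than in basal cells in both libraries, against 14.2% and 14.5% of all genes. Col17a1 was at 37.6 CPM in the control library and 38.3 CPM in the metformin library, and Plec at 92.4 CPM and 106 CPM. These cells kept Krt14 at 3126 CPM and 3445 CPM, similar to the suprabasal class (2998 CPM and 3374 CPM), in which Col17a1 was at 269 CPM and 346 CPM. The class named sebaceous gland lay between, with Col17a1 at 491 CPM and 494 CPM, Itga6 at 222 CPM and 234 CPM and Lamb3 at 62.0 CPM and 66.3 CPM. There 6 of 9 genes were at least 2-fold lower than in basal cells in either library, against 7.56% and 7.53% of all genes, and Itgb4, Dst and Plec were not. At Leiden resolution 2 the sebaceous class held 63 control and 52 metformin cells, against 225 and 227 here. A second upper hair follicle cluster of 179 and 190 cells, led by Vsnl1, Defb1 and Ccl27a, appeared at that resolution. Vsnl1 was also among the leading genes of the sebaceous class here. The levels of the 9 genes in that second cluster are not given here. In the hair matrix of the metformin library all 9 genes were at least 2-fold lower than in basal cells (16.5% of all genes) and than in the stem or outer root sheath class (19% of all genes). Itga3 was the least lowered against that class, at 25.6 CPM in the matrix and 52.8 CPM in the stem or outer root sheath class (0.484, 0.376 to 0.623). Col7a1 was at 2.11 CPM in the matrix, from 10 UMIs.

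Several stromal classes held part of the set. Schwann cells held Itga6 at 364 CPM (287 to 455) in the control library and 459 CPM (336 to 612) in the metformin library, and Itgb4 at 236 CPM (175 to 311) and 229.5 CPM (146 to 344). Both intervals of Itgb4 overlapped those of the next class, the basal cells. The same cells held Dst at 298 CPM and 349 CPM and Plec at 335 CPM and 259 CPM, and no UMI of Lama3 or Lamb3. A count of 0 allows up to 14.2 CPM in the control and 29.9 CPM in the metformin Schwann cells. Alpha 6 beta 4 is a known laminin receptor of myelinating Schwann cells, and the class expressed the myelin gene Mbp. Krt14 was at 75.6 CPM and 59.9 CPM there, so that Itga6 stood at 4812 UMIs per 1000 UMIs of Krt14 in the control library, against 35.5 in basal cells of the same library.

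Cluster 24, which expressed Pax7 and Myf5 and was left unnamed by the marker rule, also held both chains. Itga6 was at 192 CPM (141 to 256) in 113 control cells and 167 CPM (116 to 232) in 80 metformin cells, and Itgb4 at 246 CPM (188 to 316) and 234 CPM (173 to 309). No UMI of Itga3, Lama3 or Lamb3 was found in it. Vascular endothelium held Itga6 at 243 CPM and 265 CPM, Itgb4 at 37.9 CPM and 54.5 CPM, Itga3 at 25.3 CPM and 51.3 CPM and Dst at 298 CPM and 266 CPM. Its Lama3 was at 17.7 CPM (7.11 to 36.5) and 12.8 CPM (5.54 to 25.3) on 7 and 8 UMIs, the first class outside the keratinocytes for this gene in either library, with no UMI of Lamb3. Lymphatic endothelium held the most Plec of all classes, at 502 CPM (396 to 627) in the control library, where the interval overlapped that of Schwann cells, and 537 CPM (446 to 643) in the metformin library. In the 51 cells of the control library named melanocytes, Dst was at 597 CPM (464 to 757), above every other class there, and Itga6 was at 202 CPM (128 to 303). At Leiden resolution 2 only 22 control cells were named melanocytes. A further Schwann or glia cluster of 29 control cells, led by Col20a1, Cadm2 and Scn7a, appeared at that resolution. The part of such glia in the Dst and Itga6 levels was not tested.

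Both plakin genes, Dst and Plec, had UMIs in every class. Among the 19 classes of each library the lowest level of Plec was 84.8 CPM in the control library (granular cells) and 70.1 CPM in the metformin library (hair matrix), with medians of 203 CPM and 210 CPM. Smooth muscle cells or pericytes held Dst at 312 CPM and 344 CPM, and dermal dendritic cells at 46.6 CPM and 50.9 CPM. In the dermal sheath Dst was lower in the metformin library, at 58.7 CPM against 128 CPM in the control library, a ratio of 0.458 (0.347 to 0.606). It was the only member of the 4 tested there to pass 2-fold, where 9.8% of genes were lower by as much. In the dermal papilla Dst was at 355 CPM and 191 CPM and Col7a1 at 56.2 CPM and 17.2 CPM. Of 5 members tested there, Col7a1 was at least 2-fold lower in the metformin library (6.54% of all genes) and Col17a1, on 18 against 6 UMIs, was higher (2.04-fold, 0.777 to 6.29, 13.6% of all genes). Krt14 was at 100.02 CPM in the metformin and 58.5 CPM in the control dermal papilla, and the part of keratinocyte RNA in the Col17a1 call was not tested. Most of that class came from different clusters in the 2 libraries, cluster 18 with 321 of 355 control cells and cluster 19 with 290 of 324 metformin cells, so agent and cluster cannot be told apart.

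Collagen VII had a second site in the dermis. Col7a1 stood at 158 CPM (132 to 188) in 217 control cells of the dermal sheath and 171 CPM (153 to 191) in 323 metformin cells, above the basal keratinocytes at 98.8 CPM (92.6 to 105) and 87.2 CPM (82.4 to 92.3). The dermal sheath class was marked by Col11a1, Lrrc15 and Acan. Fibroblasts as a whole held 56.9 CPM (52.6 to 61.4) and 86.6 CPM (78.8 to 95.1), and in the metformin library their interval overlapped that of the basal cells. Fibroblast clusters differed widely. Cluster 5, marked by Stc1 and Igfbp2, held 147 CPM (131 to 165) and 264 CPM (225 to 307), and cluster 3, marked by Coch and Dkk2, held 95.1 CPM and 127 CPM. Cluster 1, marked by Cyp2f2 and Cpz, held 27.6 CPM and 29.1 CPM, and cluster 2, marked by Pi16 and Dpep1, held 11.1 CPM and 13.9 CPM. Cluster 17, marked by Sfrp4 and Plac8, held 1.17 CPM and 1.80 CPM, from 1 UMI each. Fibroblasts as a whole held Col17a1, Lama3 and Lamb3 far below their basal levels. Col17a1 was at 7.28 CPM and 12.3 CPM, Lama3 at 0.607 CPM and 0.389 CPM and Lamb3 at 0.867 CPM and 2.14 CPM. Both plakin genes were found in fibroblasts, with 1272 and 512 UMIs of Dst and 2297 and 1077 UMIs of Plec.

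**Figure D3:**
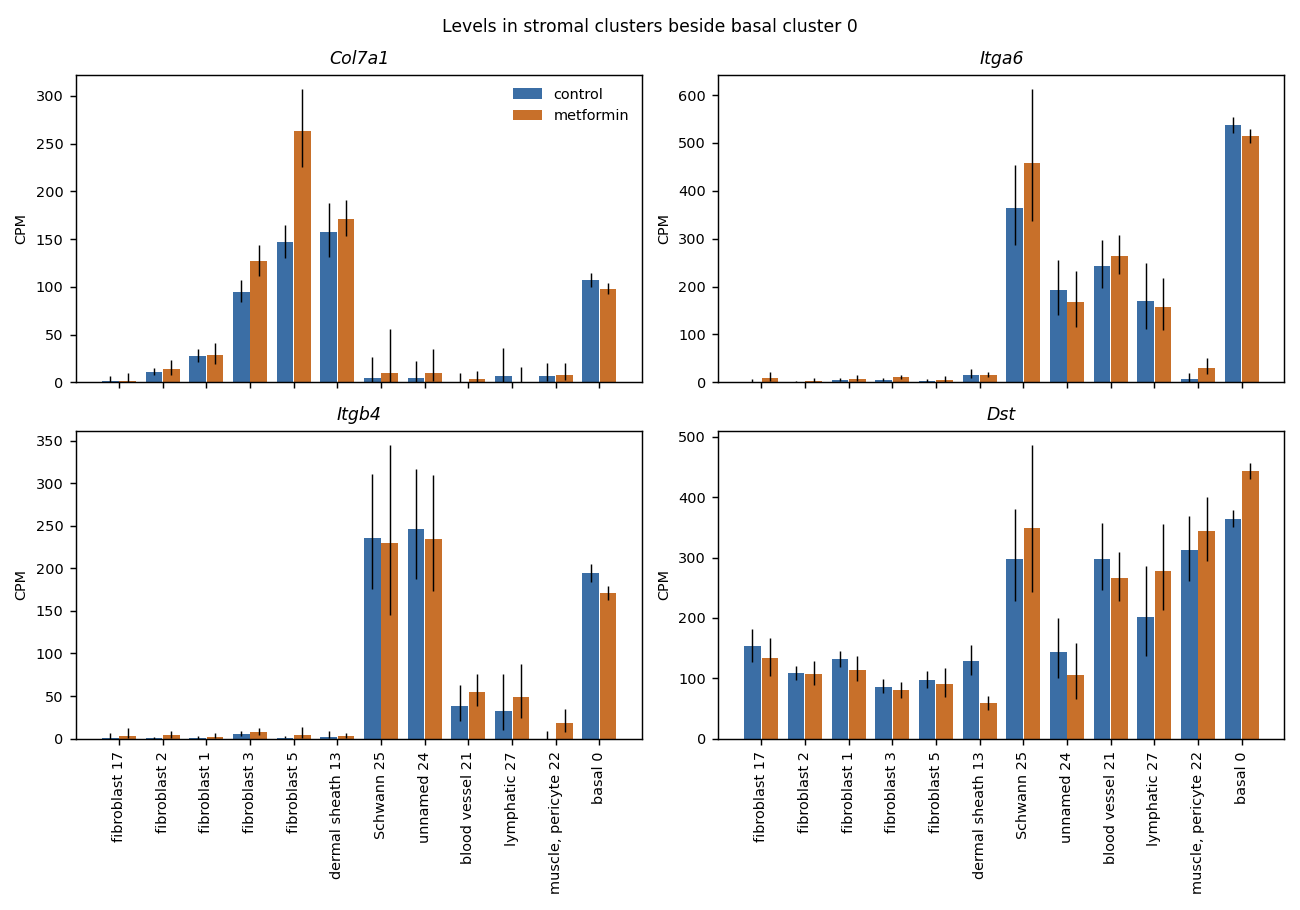
Levels (CPM) of Col7a1, Itga6, Itgb4 and Dst in 11 stromal clusters beside basal keratinocyte cluster 0, with control in blue, metformin in orange and 95% Poisson intervals as bars. Col7a1 is highest in fibroblast cluster 5 and the dermal sheath, whereas Itga6 and Itgb4 are high together in the Schwann cluster and in unnamed cluster 24.

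Keratinocyte RNA was found in all stromal and immune classes, and for some genes the ratio to Krt14 was compared with that of keratinocytes. Outside the keratinocytes Col17a1 was highest in macrophages, at 115 CPM in the control and 210 CPM in the metformin library. It stood there at 159 and 193 UMIs per 1000 UMIs of Krt14. T cells held Krt14 at 689 CPM in the control library and 195 CPM in the metformin library. In 630 control T cells the 119 UMIs of Col17a1 lay in 30 cells, with up to 14 in a cell. Col17a1 stood there at 105 and 199 UMIs per 1000 UMIs of Krt14, against 86.0 and 92.3 in basal cells, 282 and 175 in the stem or outer root sheath class and 233 in the hair matrix. Lamb3 was distributed otherwise. Its 59 UMIs in control T cells lay in 50 cells with at most 3 in a cell, and its 36 UMIs in metformin T cells lay in 34 cells. It stood at 51.9 and 106 UMIs per 1000 UMIs of Krt14 in T cells, above every keratinocyte class in the same library (1.96 to 32.7 among control classes with a UMI of Lamb3, 1.44 to 32.1 among metformin classes). Lama3, its partner chain, stood at 1.76 and 2.93 in T cells, from 2 and 1 UMIs, against 3.11 and 3.5 in basal cells. The dermal sheath of the metformin library also held Lamb3, with 14 UMIs in 11 of 323 cells, or 177 UMIs per 1000 UMIs of Krt14, and that of the control library held none in 217 cells. T cell cluster 6, led by Cd7 and Trdc, held Lamb3 at 42.2 CPM (31.1 to 55.9) and 27.7 CPM (18.6 to 39.8). After thinning, Lamb3 was seen in 4.63% of the control T cells (3.05 to 6.72%), against 0.149% of the fibroblasts in that library. In the metformin library the shares were 2.87% (1.68 to 4.55%) and 0.311%. Fibroblasts had median depths of 2683 UMIs and 3173 UMIs before thinning. The source of these Lamb3 UMIs was not tested.

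The partner list held 41 further genes of the basement membrane and its receptors. In basal over suprabasal cells 19 of 29 genes with at least 20 counts were at least 2-fold higher and 1 was lower in the control library, and 19 of 30 were higher and 1 was lower in the metformin library, with median log2 ratios of 1.76 and 1.35. Over all genes, 12.3% and 12% were higher by as much, and the share that was lower is not given here. Of the 12 other matrix genes, the 7 with enough counts were all at least 2-fold higher in basal cells in both libraries. Among them Agrn, the proteoglycan agrin, was 43.8-fold (25.4 to 82.7) and 29.1-fold (17.2 to 53.4) higher, and Col18a1, encoding collagen XVIII, 9.14-fold and 5.12-fold higher. Itgb1, the partner of Itga3 in alpha 3 beta 1, was 13-fold (10.6 to 16) and 7.24-fold (6.03 to 8.76) higher. Cd151, a tetraspanin that binds these integrins, was 1.98-fold and 1.86-fold higher. Itgb5 was the lower gene in both libraries, at 0.129 and 0.127 of the suprabasal level. Adam10 and Adam17, proteases that can shed collagen XVII, were at 0.827 (0.711 to 0.962) and 0.654 (0.567 to 0.754) of the suprabasal level in the control library and at 0.780 and 0.590 in the metformin library.

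Between the agents, basal keratinocytes kept nearly the same levels. None of the 9 genes differed by 2-fold between the metformin and the control library, where 1.24% of 11058 genes were higher by as much and 1.1% were lower. The median log2 ratio was -0.09 for the 9 genes and 0.02 for all genes. Dst was higher in the metformin library, at 429 CPM against 351 CPM (1.22-fold, 1.17 to 1.28), and Plec at 335 CPM against 310.2 CPM (1.08-fold, 1.03 to 1.13). Col17a1 was lower, at 0.865 of the control level (0.845 to 0.887), as were Col7a1 at 0.883 (0.810 to 0.962), Itgb4 at 0.891 (0.836 to 0.949) and Itga6 at 0.958 (0.924 to 0.994). The intervals of Itga3, Lama3 and Lamb3 held 1. The same basal clusters entered in nearly the same shares, cluster 0 with 79.1% of control and 79.0% of metformin basal cells. Within cluster 0 the ratio was 1.22 for Dst (1.16 to 1.28) and 0.871 for Col17a1 (0.848 to 0.894), and within cluster 9 it was 1.25 (1.14 to 1.38) and 0.848 (0.802 to 0.897). With 1 library for each agent, agent, animal and library preparation cannot be told apart.

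In suprabasal cells no member passed 2-fold either, where 1.02% of genes were higher and 1.36% lower by as much. The median log2 ratio there was 0.44 for the 9 genes and close to 0 for all genes. For 6 of the 9 genes the interval lay above 1, but the share of all genes with such an interval was not computed. Itgb4 was at 26.2 CPM against 15.7 CPM (1.68-fold, 1.33 to 2.12), Itga6 at 152 CPM against 110.5 CPM (1.37-fold, 1.26 to 1.5) and Col17a1 at 346 CPM against 269 CPM (1.29-fold, 1.21 to 1.36). Krt14 moved with them, at 3374 CPM against 2998 CPM, and Krt5 at 1845 CPM against 1525 CPM. Cluster 4, nearer to the basal cells, made up 72.3% of the metformin and 62.7% of the control suprabasal cells. Within cluster 4 the ratios were 1.41 for Itgb4 (1.11 to 1.80), 1.27 for Itga6 (1.15 to 1.39) and 1.15 for Col17a1 (1.08 to 1.22). Within cluster 12 that of Itgb4 was 3.94 (1.55 to 11.2) on 17 against 7 UMIs. Col17a1 in the whole class came to -0.15 on the log2 scale when each library was clustered on its own, so the direction of its difference rested on the clustering. The ratio of Itgb4 moved most under that clustering, by 0.56 on the log2 scale. The highest log2 ratio of the 9 genes was then 0.45.

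**Figure D4:**
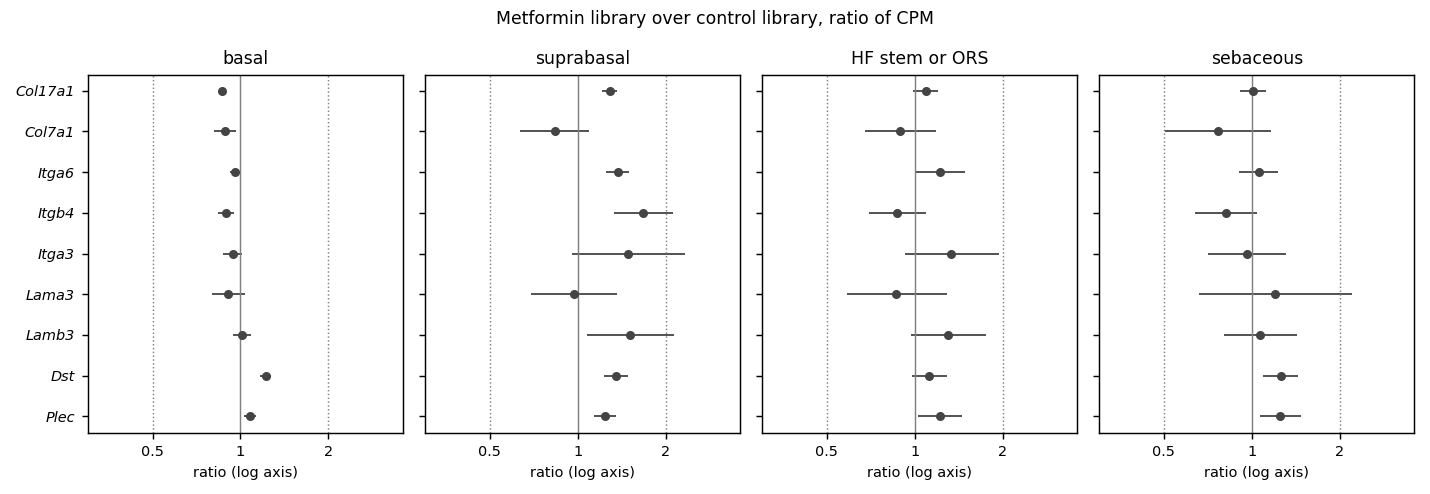
Ratio of the level in the metformin library to that in the control library (log axis) for each gene in the classes named basal, suprabasal, hair follicle stem or outer root sheath and sebaceous. Bars are 95% exact intervals for counting error, the solid line is a ratio of 1 and the dotted lines are 2-fold. No gene passes 2-fold in these 4 classes, and the basal ratios run from 0.865 (Col17a1) to 1.22 (Dst).

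Cycling basal cells gave no ratio past 2-fold (2.51% of genes were higher and 1.25% lower), with Col17a1 at 0.827 (0.773 to 0.885) and Dst at 1.15 (0.994 to 1.33). In the stem or outer root sheath class none of the 9 genes passed 2-fold, against 9.5% of genes higher and 3.28% lower, and the median log2 ratio of 0.16 was close to the 0.18 of all genes. In the class named sebaceous gland, which was smaller at Leiden resolution 2, none passed 2-fold, against 1.97% higher and 2.17% lower. Its Dst (1.25-fold, 1.09 to 1.44) and Plec (1.25-fold, 1.07 to 1.47) had intervals above 1. In fibroblasts 3 of the 8 genes with enough counts were at least 2-fold higher in the metformin library, where 2.51% of genes were, and none was lower by as much, where 2.54% were. The higher ones were Itga6 (38 UMIs in either library, 2.25-fold, 1.39 to 3.62), Itgb4 (25 against 21 UMIs, 2.67-fold, 1.44 to 5.02) and Lamb3 (11 against 10 UMIs, 2.47-fold, 0.953 to 6.49). Krt14 was at 88.6 CPM against 56.1 CPM and Krt5 at 69.1 CPM against 33.5 CPM in the same fibroblasts, and the part of such keratinocyte RNA in the 3 calls was not tested. When each library was clustered on its own, Itga6 came to -0.18 and Itgb4 to -0.79 on the log2 scale. Col7a1 rested on more counts, with 445 UMIs in the metformin and 656 UMIs in the control fibroblasts, and was at 86.6 CPM against 56.9 CPM (1.52-fold, 1.35 to 1.72). Within cluster 5 its ratio was 1.80 (1.48 to 2.18), within cluster 3 it was 1.33 (1.11 to 1.60), and within cluster 1 it was 1.05 (0.666 to 1.63). Cluster 5 made up 14.0% of metformin and 16.8% of control fibroblasts, and cluster 3 made up 29.3% of metformin and 18.6% of control fibroblasts.

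Calls in other classes came with shifts of Krt14. Col17a1 was higher in the metformin library in smooth muscle cells or pericytes (28 against 3 UMIs, 8.17-fold, 2.52 to 42, 1 of 3 genes tested, with 2.75% of all genes higher), where Krt14 was at 714 CPM against 32.4 CPM. It was higher in vascular endothelium (19 against 1 UMIs, 12.1-fold, 1.92 to 501), as was Itga3 (32 against 10 UMIs, 2.03-fold, 0.974 to 4.63), which made 2 of 6 genes tested, with 3.28% of all genes higher and Krt14 at 124 CPM against 45.5 CPM. It was also higher in dermal dendritic cells (33 against 10 UMIs, 4.84-fold, 2.33 to 11, 1 of 3 genes tested, 2.81% of all genes), with Krt14 at 106 CPM against 36.6 CPM, and in Langerhans cells (2.33-fold, 1.05 to 5.53) together with Itga6 (3.32-fold, 1.15 to 11.7, 2 of 4 genes tested, 5.03% of all genes), with Krt14 at 595 CPM against 331 CPM. In T cells Itga6 was lower, on 26 against 55 UMIs (0.445, 0.268 to 0.722, 1 of 7 genes tested, 2.39% of all genes), with Krt14 at 195 CPM against 689 CPM. The part of keratinocyte RNA in these calls was not tested.

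Of the partner list, 1 of 31 tested genes was at least 2-fold higher in basal cells of the metformin library and none was 2-fold lower. Over all genes 1.24% were higher and 1.1% lower by as much. The higher partner gene was Lama1, at 1.66 CPM from 23 UMIs against 0.313 CPM from 3 UMIs (5.31-fold, 1.60 to 27.6). Next were Col4a2 at 1.92-fold (1.22 to 3.11) and Col4a6 at 1.32-fold (1.10 to 1.58), chains of collagen IV. The lowest ratios were those of Itga7 at 0.615 (0.408 to 0.925), Hspg2 at 0.744 (0.543 to 1.02) and Lamb1 at 0.788 (0.464 to 1.35). Among the laminin chains of the set, the ratio was 0.910 (0.802 to 1.03) for Lama3 and 1.01 (0.941 to 1.09) for Lamb3.

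The genes fell into separate patterns across classes. Over 36 points, each a class in a library (17 classes in both, and the hair matrix and inner root sheath in the metformin library, but not the granular layer and melanocytes of the control library), the log2 level of Itga6 was most like that of Itgb4 (Pearson r = 0.93) among 11710 genes that reached 20 CPM in some class. Col17a1 was most like Krt5 (0.96), Krt14 (0.94) and Tns4 (0.93), and Lamb3 was most like Krt5 (0.90), Krt15 (0.90) and Col17a1 (0.89). Col7a1 was most like Postn (0.84), Smoc2 (0.82) and Btbd11 (0.73), of which Postn and Smoc2 encode secreted matrix proteins. Dst was most like Cav1 (0.80), Clstn1 (0.78) and Cav2 (0.78), and Plec was most like Cav1 (0.80), Cdh13 (0.76) and Ackr3 (0.76). Itga3 was most like Jag2 (0.86), Bcam (0.76) and Met (0.74), and Lama3 was most like Cecr2 (0.83), Mgst2 (0.83) and Glt28d2 (0.82). After Itgb4, Itga6 was most like Tgfa (0.80) and Art4 (0.74), and Itgb4 was most like Itga6, Art4 (0.84) and Tgfa (0.79). Among the 9 genes themselves the plakins Dst and Plec gave r = 0.68, whereas Col17a1 and Plec gave -0.13. The points share libraries and depth, and Krt5, Krt14, Krt15 and Postn were also among the markers that named the classes. With the control granular layer and melanocytes added, an alternative chosen after seeing the data and giving 38 points, 19 of the 27 genes named here as most alike stayed among the first 3. The correlation of Tgfa with Itga6 came to 0.54 and with Itgb4 to 0.63, and for Dst the 3 genes became Cav2 (0.83), Clstn1 (0.81) and Socs3 (0.80).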

How the data were processed

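Single-cell suspensions of skin were profiled with a droplet method, and the deposited matrices hold whole-number UMI counts per gene and barcode that the authors made with Cell Ranger 4.0.0 on GRCm38 (mm10), per the file headers and the submitters' processing notes. The count of 500 UMIs was the lowest of any deposited barcode. No other normalization was applied by the authors. The members and the gene lists were chosen with earlier results of these data known.

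Kept barcodes had 300 to 3000 detected genes, no fewer than 800 UMIs and a mitochondrial share of no more than 8%. The upper gene limit was exceeded by 12.1% of control and 19.4% of metformin barcodes. Scrublet (scanpy 1.11.5, expected rate 8%) marked 2.43% of control and 3.26% of metformin cells as doublets, which were removed. Counts were scaled to 10000 UMIs per cell and log transformed, and 2000 variable genes chosen without the 9 members and 41 partner genes, 30 principal components, 20 neighbours and Leiden clustering (leidenalg 0.10.2, resolution 1) gave 33 clusters. A cluster was named from 28 marker lists where at least 3 markers were 1.5-fold above the mean of the other clusters in at least 10% of cells, unless another list held more of its top 10 genes or, with no marker among these, its mean log2 fold was under 1 or its cells were unusually shallow. This scoring rule was set after the clusters had been seen, and 3 clusters stayed unnamed.

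Counts were summed per class and library. Levels have exact Poisson intervals, shares have Clopper-Pearson intervals and ratios have exact conditional binomial intervals (scipy 1.17.1), all at 95%. A call meant at least 2-fold with at least 20 counts together. A count of 0 was read as an upper limit of 3 counts, a fixed limit that is tighter than the upper end of the exact intervals. UMI counts at 3′ ends do not allow levels to be compared between genes. The fold calls were tested on simulated data. The alternatives tried are given under the dependence on processing. Named genes were the 9 members, the 3 genes most like each, certain laminin chains and the 3 highest and 3 lowest metformin over control ratios of the partner list in basal cells. Those named beyond this rule were chosen after their values had been seen: Agrn, Col18a1, Itgb1, Cd151, Itgb5, Adam10 and Adam17. Some results that fell under this rule are not reported here.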

Additional observations from a re-analysis of the deposited data

How the results depend on the processing

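No paired analysis was possible because each agent has 1 library. The counts were recomputed with a wider cell filter (no gene limit, up to 20% mitochondrial UMIs), doublets kept, the members and partners kept among the variable genes, Leiden resolution 2, each library clustered on its own, means over cells of CPM, thinning to 1500 UMIs, division by the median ratio and a minimum of 5 counts, each where it applied. Members at least 2-fold higher in basal than in suprabasal cells in both libraries numbered 7 to 9 of 9, those highest in the basal class in both libraries 4 to 7, and those past 2-fold between the libraries in basal cells 0 under every one of these alternatives. All 18 log2 ratios of basal over suprabasal cells kept their sign throughout, though that of Itga3 ran from 3.04 to 6.82 in the control and from 2.54 to 8.34 in the metformin library. In fibroblasts, clustering each library on its own turned the metformin over control ratio of Itga6 to -0.18 and of Itgb4 to -0.79 (log2); the cause was not tested. Dst in basal cells stayed between 0.26 and 0.33 and Col17a1 between -0.25 and -0.18. Members found in at least 10% of basal cells of both libraries numbered 8 after thinning to 1500 UMIs, 7 at 1000 UMIs and 9 unthinned. Class names moved as well. At Leiden resolution 2 the melanocyte and sebaceous classes were smaller, and further glial and upper hair follicle clusters were named. Depth limits what a 0 says in small classes such as the 54 metformin Schwann cells.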
